A study of Rattus norvegicus with 21 samples.

Results

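The unfolded protein response (UPR) and the targets of its transcription factor ATF4 were followed in MENX rats, from the lesions of their pituitaries, and in wild-type controls. MENX is an inherited syndrome of the rat in which several endocrine tumors arise. The genes were a list of 38 symbols, chosen by name and with earlier results of these data known. Of these, 35 had a probe set with that symbol in the platform annotation, among 14506 genes with 1 symbol on the array. They fall into 3 branches, a chaperone branch around ATF6 and protein folding in the endoplasmic reticulum (ER; 15 of 15 genes measured), an XBP1 branch with ER-associated degradation (5 of 7) and an ATF4 branch with amino acid synthesis (15 of 16). Ern1, Edem1 and Vldlr2 had no probe set under those symbols and were not analysed here. Each gene was read from 1 probe set, chosen as the brightest of that gene on average over the 21 arrays. Values are log2 RMA values (RMA is the robust multi-array average of a probe set).

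The lesions were 16 pituitary samples, called adenomas in the study, of rats homozygous for a mutation of p27Kip1, which the labels spell Cdknb1 (Cdkn1b), and these rats were 7 to 12 months old. They were set against 5 wild-type pituitaries from 6-month-old rats, and both groups were of the mixed strain Sprague–Dawley white eye/Wistar–Kyoto. The mutation is carried by every cell of the mutant rats, tissue was dissected by hand before RNA extraction, and the wild-type tissue was normal pituitary. All mutant rats were older than all wild-type rats, so genotype, tumor and age cannot be told apart. The 16 lesions carry 9 sample numbers (4 with 1 lesion, 3 with 2 and 2 with 3), and lesions that share a number were averaged, which gave 9 adenoma values (6 female, 3 male) and 5 wild-type values (2 female, 3 male). The study's text gives another number of mutant rats and a narrower range of ages than these labels, so the averaged units and the ages rest on the labels alone. The sample numbers begin with 08 (5 adenoma numbers, 2 wild-type) or 09 (4 adenoma numbers, 3 wild-type), and all 4 adenoma numbers that begin with 09 are female.

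Proteins that enter the ER fold there with the help of chaperones, and an excess of unfolded protein is sensed by the membrane proteins ATF6, IRE1 (Ern1) and PERK (Eif2ak3). ATF6 is cut to a transcription factor that switches on chaperone genes, IRE1 splices the mRNA of Xbp1 so that it encodes an active factor for folding and degradation genes, and PERK phosphorylates eIF2α, which lowers protein synthesis and favours translation of ATF4. ATF4 is also raised through eIF2α by the amino acid sensor GCN2 (Eif2ak4), and its targets include asparagine, serine and proline synthesis, mitochondrial folate enzymes and tRNA synthetases. Hormone-secreting cells of the pituitary carry a high load of ER client proteins.

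The promoter sequences below are shown because they hold response elements of the kind that ATF6, XBP1 and ATF4 are known to bind. They come from RefSeq, build GRCr8, as windows of 250 bases before to 50 bases after each transcription start, and 30 of the 35 members had a window. Searched on both strands, the ER stress response element ERSE (the boxes CCAAT and CCACG with 9 bases between them) was found in 6 of the 11 chaperone-branch windows (54.5%), against 22 of all 33469 windows (0.0657%). ERSE-II (ATTGG and CCACG with 1 base between them) was found in 2 of those 11, against 0.0508% of all windows, and the core of the XBP1 element UPRE (TGACGTGG) in 1 of the 11, against 0.595%. The CEBP-ATF response element CARE, to which ATF4 binds (TGATGNAA), was found in 2 of the 14 ATF4-branch windows (14.3%), against 3.98% of all windows, and in 1 of the 5 XBP1-branch windows. The whole Hspa5 window, chr3:38452766-38453065 on the plus strand, is printed first with its ERSE in capitals, followed by other elements of the members with up to 10 flanking bases, in the element's own orientation and with the element in capitals.
Hspa5: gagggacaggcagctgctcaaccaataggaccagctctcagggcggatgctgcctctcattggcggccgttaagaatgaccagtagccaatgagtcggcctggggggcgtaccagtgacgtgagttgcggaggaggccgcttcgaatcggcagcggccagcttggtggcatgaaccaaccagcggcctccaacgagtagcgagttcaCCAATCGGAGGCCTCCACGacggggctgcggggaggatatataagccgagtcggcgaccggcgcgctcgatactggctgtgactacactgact
Hsp90b1 ERSE, chr7:23012441-23012479, minus strand: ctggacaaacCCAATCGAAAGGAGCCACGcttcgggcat
Hsp90b1 ERSE, chr7:23012337-23012375, plus strand: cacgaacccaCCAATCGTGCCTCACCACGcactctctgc
Calr ERSE, chr19:40213125-40213163, minus strand: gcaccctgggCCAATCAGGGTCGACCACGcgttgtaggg
Dnajc3 ERSE, chr15:102432524-102432562, plus strand: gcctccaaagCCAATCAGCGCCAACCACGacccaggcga
Creld2 ERSE, chr7:121789229-121789267, minus strand: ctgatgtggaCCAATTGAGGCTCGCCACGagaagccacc
Xbp1 ERSE, chr14:84604548-84604586, plus strand: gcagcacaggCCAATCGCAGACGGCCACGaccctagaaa
Dnajb11 ERSE-II, chr11:91672790-91672820, minus strand: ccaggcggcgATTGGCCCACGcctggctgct
Hyou1 ERSE-II, chr8:53602684-53602714, minus strand: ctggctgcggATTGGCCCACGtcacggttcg
Hyou1 ERSE-II, chr8:53602784-53602814, minus strand: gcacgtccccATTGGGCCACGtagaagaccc
Herpud1 ERSE-II, chr19:10614811-10614841, minus strand: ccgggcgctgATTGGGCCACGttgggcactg
Hyou1 UPRE core, chr8:53602681-53602708, plus strand: ccgcgaaccgTGACGTGGgccaatccgc
Herpud1 CARE, chr19:10614874-10614901, plus strand: gggtgcgggcTGATGCAAcccgccgtgg
Trib3 CARE, chr3:161275537-161275564, plus strand: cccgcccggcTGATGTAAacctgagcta
Chac1 CARE, chr3:126795954-126795981, minus strand: ctagcaggagTGATGCAAcggcggagaa

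The UPRE core of Hyou1 overlaps an ERSE-II of the same window, on the opposite strand. A match is a description of the letters, and the windows without a match (Sdf2l1, Asns and Mthfd2 among them) say only that these letters are not there. The arrays measure RNA, so binding of ATF6, XBP1 or ATF4 to these elements was not measured.

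Over the whole array, 17.5% of the 29214 probe sets passed limma's test with a Benjamini-Hochberg adjusted p under 0.05, 8.49% higher and 9.06% lower in adenomas. All adenomas lay above all wild-type pituitaries in 2.66% of probe sets and below them in 2.16%, and array medians lay between 6.36 and 6.53. The mutated gene Cdkn1b (probe set 10859254) was at 8.99 to 9.55 (median 9.22) in the adenomas, against 9.11, 8.78, 8.98, 8.65 and 9.01 in wild-type pituitaries 1 to 5, a higher mRNA level in the adenomas (log2 fold change 0.33, SE 0.098, adjusted p = 0.0324 from limma). The mRNA level does not read the mutation itself. Leaving out adenoma 3, adenoma 7 or wild-type pituitary 2 or 4 ended that call. The call was also lost with sex as a covariate, after a second quantile normalization, with array weights and in several other alternative fits. Of the gonadotroph markers, Cga and Gnrhr were higher and Lhb and Fshb lower in the adenomas. All 5 somatotroph markers, 4 of 5 corticotroph and melanotroph markers, 5 of 7 folliculostellate and 3 of 4 posterior lobe markers were lower, as was 1 of 4 thyrotroph markers (Tshb), while 5 of 7 macrophage, 3 of 7 fibroblast and pericyte (Rgs5, Col3a1 and Pdgfrb), 2 of 6 endothelial (Flt1 and Esam) and 1 of 4 lactotroph markers (Prlr) were higher, and none of 5 T and NK cell or 4 plasma and B cell markers was called. In bulk tissue, fewer cells of a type and less RNA per cell cannot be told apart.

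More UPR genes were higher than lower in the adenomas. The 6 largest log2 fold changes were those of Mthfd2, Sdf2l1, Gpt2, Asns, Shmt2 and Dnajb11, that is, metabolic targets of ATF4 and partners of the chaperone BiP, whereas the stress factor Ddit3 (CHOP) and the serine synthesis enzyme Phgdh were lower. Of the 35 members, 14 were called higher, 2 lower and 19 were not called, and 29 had a log2 fold change above 0. The share called higher was 40.0%, beside 12.1% of all genes with 1 symbol and 17.9% of the 8807 genes whose mean lay above the median of all values. For lower calls the background was 9.70% and 10.5%, and for calls in either direction 21.7% and 28.4%. The median log2 fold change was 0.25 over the members, beside -0.0099 over all genes and 0.075 over the brighter ones. In 7 members all 9 adenoma values lay above all 5 wild-type values, which held for 3.91% of all genes and 5.78% of the brighter ones. The list was chosen with earlier results of these data known, so these counts are descriptions.

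**Figure D1:**
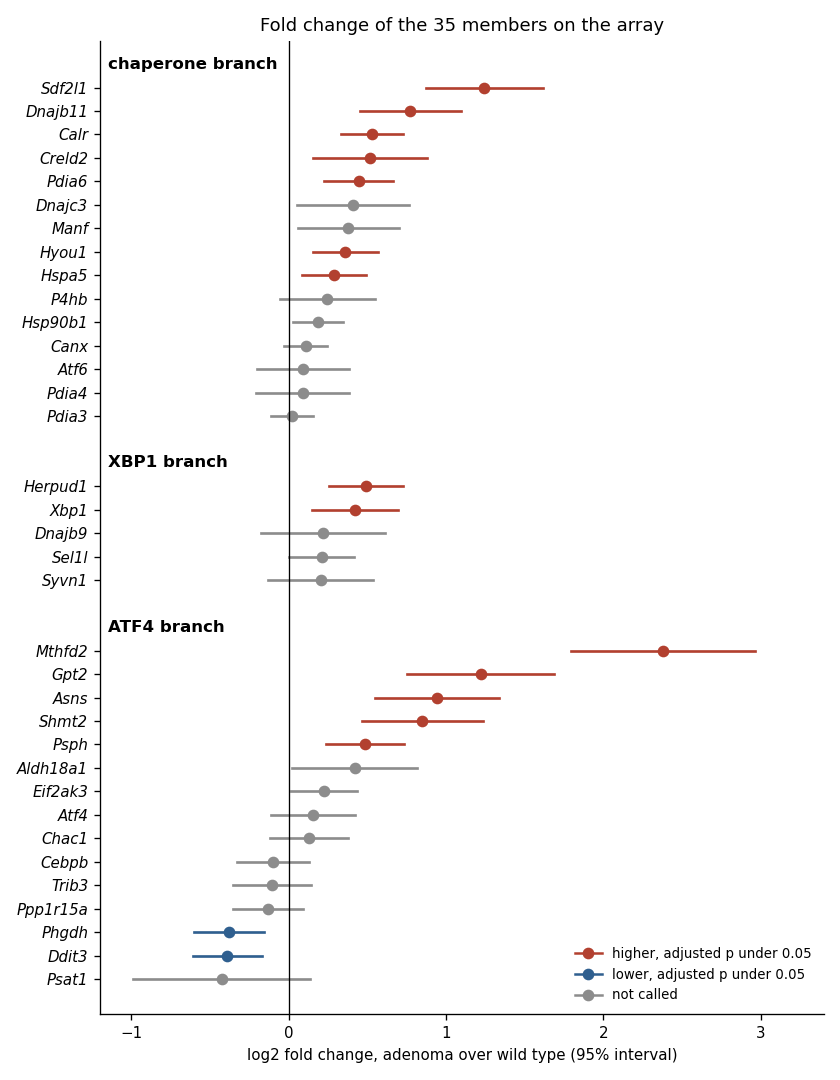
Log2 fold change of each of the 35 members, adenoma over wild type (x axis), with its 95% interval from limma as a line. Red points were called higher, blue points lower and grey points were not called at an adjusted p under 0.05, and Mthfd2 at 2.38 stands at the far right while Ddit3 and Phgdh lie left of 0.

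The wild-type pituitaries differed among themselves in these genes. For the counts of lowest and highest pituitary and of larger SD below, no share over all genes was computed. Whether this spread is particular to these genes was not tested. Wild-type pituitary 4 had the lowest value of the 5 for all 15 chaperone-branch members and for 4 of 5 XBP1-branch members. Wild-type pituitary 5 was the highest of the 5 for 9 chaperone-branch members, and wild-type pituitary 2 for the other 6. As the mean difference from the wild-type means over the 15 chaperone genes, the adenomas lay between 0.08 (adenoma 2) and 0.49 (adenoma 1), against -0.03, 0.12, -0.05, -0.36 and 0.32 in wild-type pituitaries 1 to 5. Wild-type pituitary 5 thus lay inside the range of the adenomas on this scale, and adenoma 2 was the lowest of the 9 for 13 of the 15 genes. The SD was larger over the wild-type pituitaries than over the adenomas for all 15 chaperone, all 5 XBP1 and 10 of 15 ATF4 members. Of the 9 adenoma values, 5 are means of 2 or 3 lesions, and averaging lowers the SD. The test of the study's methods, run with unequal variances, took the 16 lesions as independent samples and not the averaged values. Lesions that share a sample number were thus counted separately, so its calls are no check on the averaged values. This test did not call Hspa5, Dnajb11, Hyou1, Creld2, Xbp1, Herpud1, Shmt2 or Ddit3. It kept the calls of Calr, Pdia6, Sdf2l1, Asns, Psph, Mthfd2, Gpt2 and Phgdh.

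Leaving out wild-type pituitary 4 left 4 chaperone members, 1 XBP1 member and 5 ATF4 members called higher and 1 ATF4 member called lower, with branch medians of 0.26, 0.20 and 0.11. Calls over the whole array fell as well without wild-type pituitary 4, from 2479 to 1573 probe sets higher and from 2648 to 1649 lower. Leaving out wild-type pituitary 5 gave 9, 2 and 7 members called higher and 1 lower, with medians of 0.47, 0.35 and 0.29. Over all fits without 1 sample number, 1573 to 3106 probe sets were called higher and 1649 to 3780 lower. Whether the members moved more than the array was not tested. The chaperone genes that stayed called without wild-type pituitary 4 were Calr, Pdia6, Dnajb11 and Sdf2l1. Those that became called without wild-type pituitary 5 were Dnajc3 and Manf in the chaperone branch and Eif2ak3 and Aldh18a1 in the ATF4 branch.

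In the chaperone branch 7 of 15 members were called higher (46.7%, beside 12.1% of all genes and 17.9% of the brighter ones) and none lower. All 15 had a log2 fold change above 0, and the median was 0.36. The transducer Atf6 itself was at 9.21 to 9.77 (median 9.56) in the adenomas, against 8.97 to 9.82 in the wild-type pituitaries, and was not called (log2 fold change 0.09, SE 0.14, adjusted p = 0.682 from limma). Atf6 values of both groups overlapped over most of their range. Hspa5 (probe set 10835692), which encodes BiP, the main Hsp70 chaperone of the ER, was at 12.75 at the lowest, 12.86 at the median and 13.02 at the highest of the 9 adenoma numbers, against 12.56, 12.90, 12.40, 12.24 and 12.77 in wild-type pituitaries 1 to 5. The 9 adenoma values filled a narrow band, and wild-type pituitaries 2 and 5 lay inside it. The mean was 1.22-fold of wild type (log2 fold change 0.29, SE 0.096, adjusted p = 0.0486), a call that was lost in 11 of the 14 fits without 1 sample and in the fit with a block for the prefix (adjusted p = 0.0555). Hsp90b1, the ER paralog of Hsp90, had 6 of 9 adenoma values above all wild-type values but missed the threshold (log2 fold change 0.19, SE 0.074, adjusted p = 0.0947).

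Of the lectin chaperones that retain unfinished glycoproteins, Calr passed the test and Canx did not. Calr (calreticulin, probe set 10806640) was at 11.70 at the lowest, 11.94 at the median and 12.19 at the highest of the 9 adenoma numbers, against 11.27, 11.41, 11.46, 11.25 and 11.67 in wild-type pituitaries 1 to 5. All adenoma values lay above all wild-type values, the lowest adenoma (11.70) just over the highest wild-type pituitary (11.67), with a mean 1.44-fold higher (log2 fold change 0.53, SE 0.092, adjusted p = 0.00154). Its membrane-bound relative Canx (calnexin) had a log2 fold change of 0.11 (95% interval -0.03 to 0.24), and their disulfide isomerase partner Pdia3 (ERp57) one of 0.02 (95% interval -0.12 to 0.15), with neither called. Of the other disulfide isomerases only Pdia6 passed the test, at 11.30 to 11.86 (median 11.65) in the adenomas and 10.91 to 11.40 in the wild-type pituitaries (log2 fold change 0.44, SE 0.10, adjusted p = 0.00904), with 8 of 9 adenomas above all wild-type values. Pdia4 (0.09, 95% interval -0.21 to 0.38) and P4hb (0.25, 95% interval -0.06 to 0.55) were not called. Whether Pdia6 differed more than its relatives was not tested.

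The largest differences of the branch were in the partners of BiP. Sdf2l1 (probe set 10752531), an ER protein that binds the co-chaperone ERdj3, was at 8.80 at the lowest, 9.19 at the median and 9.60 at the highest of the 9 adenoma numbers, against 8.02, 8.60, 7.72, 7.26 and 7.92 in wild-type pituitaries 1 to 5. The groups did not overlap, and the adenoma mean was 2.37-fold of the wild-type mean (log2 fold change 1.24, SE 0.17, adjusted p = 0.000377). Dnajb11 (probe set 10755171), which encodes ERdj3, was at 9.24 at the lowest, 9.73 at the median and 9.95 at the highest of the 9 adenoma numbers, against 8.68, 9.28, 8.80, 8.40 and 9.27 in wild-type pituitaries 1 to 5. Only adenoma 2 (9.24) fell within the wild-type range, just below wild-type pituitaries 2 (9.28) and 5 (9.27), and the mean was 1.71-fold of wild type (log2 fold change 0.77, SE 0.15, adjusted p = 0.00337). Hyou1, the nucleotide exchange factor Grp170 of BiP, was at 11.22 to 11.43 (median 11.33) in the adenomas and 10.66 to 11.39 in the wild-type pituitaries (log2 fold change 0.36, SE 0.098, adjusted p = 0.0202). Its highest wild-type value, that of wild-type pituitary 5 (11.39), lay among the adenomas. The call was lost without wild-type pituitary 4 and after a second quantile normalization. Dnajc3 (p58IPK), another J-domain co-chaperone, was not called (log2 fold change 0.41, SE 0.17, adjusted p = 0.105).

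Creld2 and Manf, small ER proteins that can also be secreted, are known as strongly inducible by ER stress. Creld2 was at 9.01 to 9.94 (median 9.63) in the adenomas and 8.55 to 9.68 in the wild-type pituitaries (log2 fold change 0.52, SE 0.17, adjusted p = 0.0493), with 3 of 9 adenomas above all wild-type values, and lost its call in 11 of the 14 fits without 1 sample. Manf was at 10.17 at the lowest, 10.64 at the median and 10.71 at the highest of the 9 adenoma numbers, against 9.95, 9.98, 10.15, 9.91 and 10.98 in wild-type pituitaries 1 to 5, and was not called (log2 fold change 0.38, SE 0.15, adjusted p = 0.0957). Wild-type pituitary 5 stood above all adenomas for Manf, while the other wild-type pituitaries stood below the lowest adenoma. Adenoma 2 stood apart from the other adenomas for this gene, at 10.17 against 10.51 for the next.

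**Figure D2:**
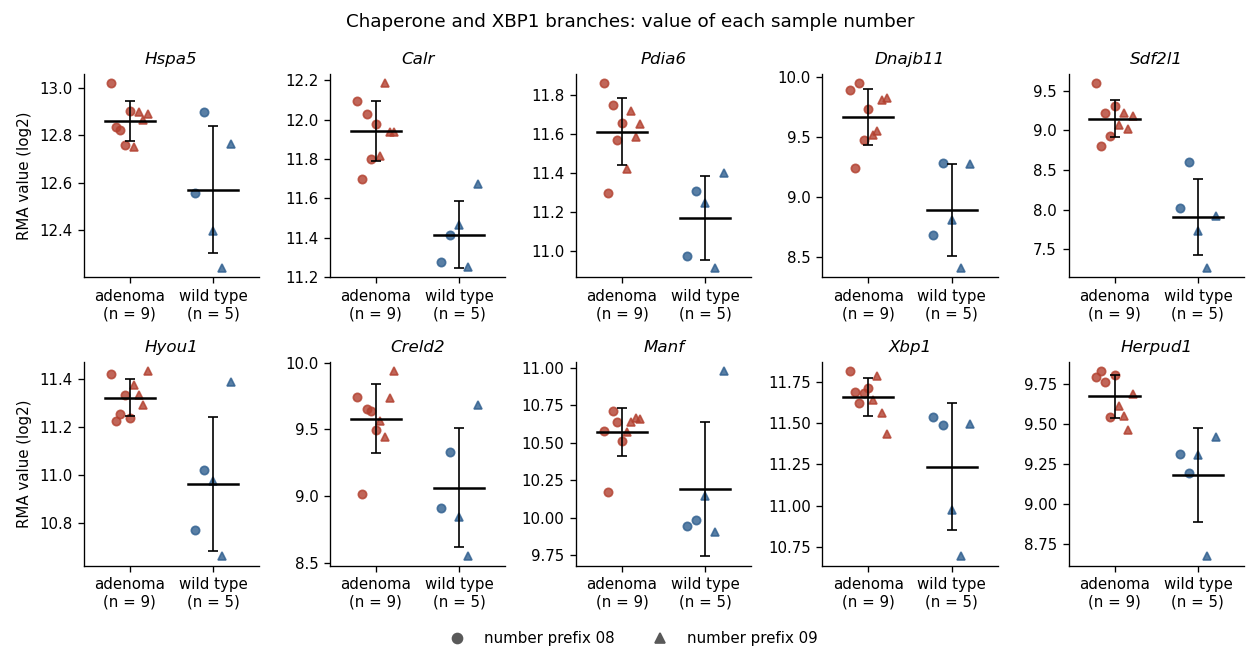
Log2 RMA value (y axis, own scale in each panel) of 8 chaperone-branch and 2 XBP1-branch genes in each sample number, adenomas in red at the left and wild-type pituitaries in blue at the right. Horizontal lines are group means with SD bars (n = 9 and n = 5), circles are number prefix 08 and triangles 09, and only Calr, Sdf2l1 and Herpud1 show no overlap of the groups.

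Of the XBP1 branch, 2 of 5 members were called higher (40.0%, beside 12.1% of all genes and 17.9% of the brighter ones) and none lower. All 5 log2 fold changes were above 0, with a median of 0.22. Xbp1 (probe set 10773961) was at 11.44 at the lowest, 11.68 at the median and 11.81 at the highest of the 9 adenoma numbers, against 11.54, 11.49, 10.97, 10.70 and 11.50 in wild-type pituitaries 1 to 5. It was 1.34-fold of wild type (log2 fold change 0.42, SE 0.13, adjusted p = 0.0338), and 8 of 9 adenomas exceeded all wild-type values, of which those of pituitaries 3 and 4 were the lowest. Leaving out adenoma 1, 2, 5 or 7 or wild-type pituitary 3 or 4 ended the call, as did sex as a covariate, and over all fits without 1 sample the log2 fold change was 0.29 to 0.50. A gene-level value does not tell spliced from unspliced Xbp1 mRNA. Herpud1 (probe set 10809328), a membrane protein that organises the degradation complex and whose promoter carries an ERSE-II and a CARE, was at 9.46 at the lowest, 9.69 at the median and 9.83 at the highest of the 9 adenoma numbers, against 9.31, 9.19, 9.31, 8.67 and 9.42 in wild-type pituitaries 1 to 5. Its groups did not overlap (log2 fold change 0.49, SE 0.11, adjusted p = 0.00754), and no fit without 1 sample lost the call. With unequal variances, over lesions as independent samples, Herpud1 was not called. The ubiquitin ligase Syvn1 (HRD1), its partner Sel1l and the co-chaperone Dnajb9 (ERdj4) had log2 fold changes of 0.20, 0.21 and 0.22, with 95% intervals of -0.13 to 0.54, 0.0024 to 0.41 and -0.18 to 0.61, and were not called.

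In the ATF4 branch 5 of 15 members were called higher (33.3%, beside 12.1% of all genes and 17.9% of the brighter ones). Lower calls were 2 of 15, beside 9.70% of all genes and 10.5% of the brighter ones, and the median was 0.16. Neither transducer was called. The kinase gene Eif2ak3 (PERK) was at 9.86 to 10.05 (median 9.97) in the adenomas and 9.44 to 10.10 in the wild-type pituitaries (log2 fold change 0.23, SE 0.099, adjusted p = 0.124), and Atf4, whose product is set mainly by translation, was at 9.31 to 9.81 (median 9.67) in the adenomas and 9.16 to 10.01 in the wild-type pituitaries (log2 fold change 0.16, SE 0.12, adjusted p = 0.415). Wild-type pituitary 5 held the highest value of all 14 samples for both genes.

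None of the 5 stress response factors and feedback genes of this branch was called higher. Ddit3 (probe set 10895861), which encodes CHOP, a factor that promotes cell death under lasting ER stress, was at 7.31 at the lowest, 7.39 at the median and 7.63 at the highest of the 9 adenoma numbers, against 7.77, 7.86, 8.29, 7.63 and 7.58 in wild-type pituitaries 1 to 5. In 8 of 9 adenomas it lay below all wild-type values, with a mean 1.31-fold lower (log2 fold change -0.39, SE 0.10, adjusted p = 0.0175), and no fit without 1 sample lost the call. With unequal variances, over lesions as independent samples, Ddit3 was not called. Trib3 (-0.10, 95% interval -0.35 to 0.14), a pseudokinase induced by CHOP and ATF4, and Chac1 (0.13, 95% interval -0.12 to 0.38), which breaks down glutathione, both carry a CARE and were not called. The transcription factor gene Cebpb (-0.10, 95% interval -0.33 to 0.13) and Ppp1r15a (-0.13, 95% interval -0.36 to 0.09), for the GADD34 subunit that leads a phosphatase to eIF2α, were not called either. Trib3, with group means of 5.97 and 6.07, lay below the array medians, as did the wild-type mean of Chac1 (6.35).

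Among the metabolic targets, Mthfd2 had the largest difference of all members. Mthfd2 (probe set 10870316), a mitochondrial folate enzyme that is low in most adult tissues, was at 9.54 at the lowest, 10.41 at the median and 11.10 at the highest of the 9 adenoma numbers, against 7.50, 7.97, 7.87, 7.51 and 8.77 in wild-type pituitaries 1 to 5. The lowest adenoma (9.54) was above the highest wild-type pituitary (8.77), and the mean was 5.20-fold of wild type (log2 fold change 2.38, SE 0.28, adjusted p = 0.000103). A second probe set (10863512) gave 9.25 to 10.93 in the adenomas and 6.62 to 8.01 in the wild-type pituitaries (log2 fold change 2.80, SE 0.30, adjusted p = 5.55e-05). Whether its probes overlap those of the first was not checked, nor whether either probe set reads a copy of the gene elsewhere in the genome. Shmt2 (probe set 10903061), which makes glycine and a folate-bound carbon unit from serine in the mitochondrion, was at 7.75 at the lowest, 8.10 at the median and 8.50 at the highest of the 9 adenoma numbers, against 7.94, 7.37, 7.16, 6.57 and 7.39 in wild-type pituitaries 1 to 5. It was 1.80-fold of wild type (log2 fold change 0.85, SE 0.18, adjusted p = 0.00521), with 7 of 9 adenomas above all wild-type values.

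Asns (probe set 10860951), the asparagine synthetase, was at 9.84 at the lowest, 10.08 at the median and 10.81 at the highest of the 9 adenoma numbers, against 9.59, 9.58, 9.58, 8.88 and 8.97 in wild-type pituitaries 1 to 5. The groups did not overlap, and wild-type pituitaries 4 and 5 were the lowest samples (log2 fold change 0.94, SE 0.19, adjusted p = 0.0033). Gpt2 (probe set 10809824), the mitochondrial alanine transaminase, was at 6.82 at the lowest, 7.30 at the median and 8.11 at the highest of the 9 adenoma numbers, against 6.18, 6.48, 5.94, 6.36 and 6.03 in wild-type pituitaries 1 to 5. Its groups did not overlap either, at 2.33-fold of wild type (log2 fold change 1.22, SE 0.22, adjusted p = 0.00189). The wild-type mean of Gpt2 (6.20) lay below the array medians. For Mthfd2, Asns, Gpt2 and Shmt2, no fit without 1 sample lost the call. With unequal variances, over lesions as independent samples, Shmt2 was not called, while Mthfd2, Asns and Gpt2 were. Aldh18a1, the first enzyme of proline synthesis from glutamate, was not called (log2 fold change 0.42, SE 0.19, adjusted p = 0.133).

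The serine synthesis enzymes went different ways. Phgdh (probe set 10825328), the first step, was at 6.84 at the lowest, 7.18 at the median and 7.39 at the highest of the 9 adenoma numbers, against 7.29, 7.50, 7.51, 7.61 and 7.60 in wild-type pituitaries 1 to 5. It was lower in the adenomas, 6 of 9 lying below all wild-type values (log2 fold change -0.38, SE 0.10, adjusted p = 0.0219), and the call was lost without wild-type pituitary 4 or 5. Psat1, the second step, was at 6.61 to 8.36 (median 7.66) in the adenomas and 7.54 to 8.73 in the wild-type pituitaries and was not called (log2 fold change -0.43, SE 0.26, adjusted p = 0.279), and a second probe set of it was not called either (log2 fold change -0.28, adjusted p = 0.299). Psph (probe set 10761394), the last step, was at 7.37 at the lowest, 7.56 at the median and 7.97 at the highest of the 9 adenoma numbers, against 7.24, 7.27, 7.24, 7.02 and 7.04 in wild-type pituitaries 1 to 5. All adenomas lay above all wild-type pituitaries (log2 fold change 0.49, SE 0.12, adjusted p = 0.0104), and no fit without 1 sample lost the call.

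**Figure D3:**
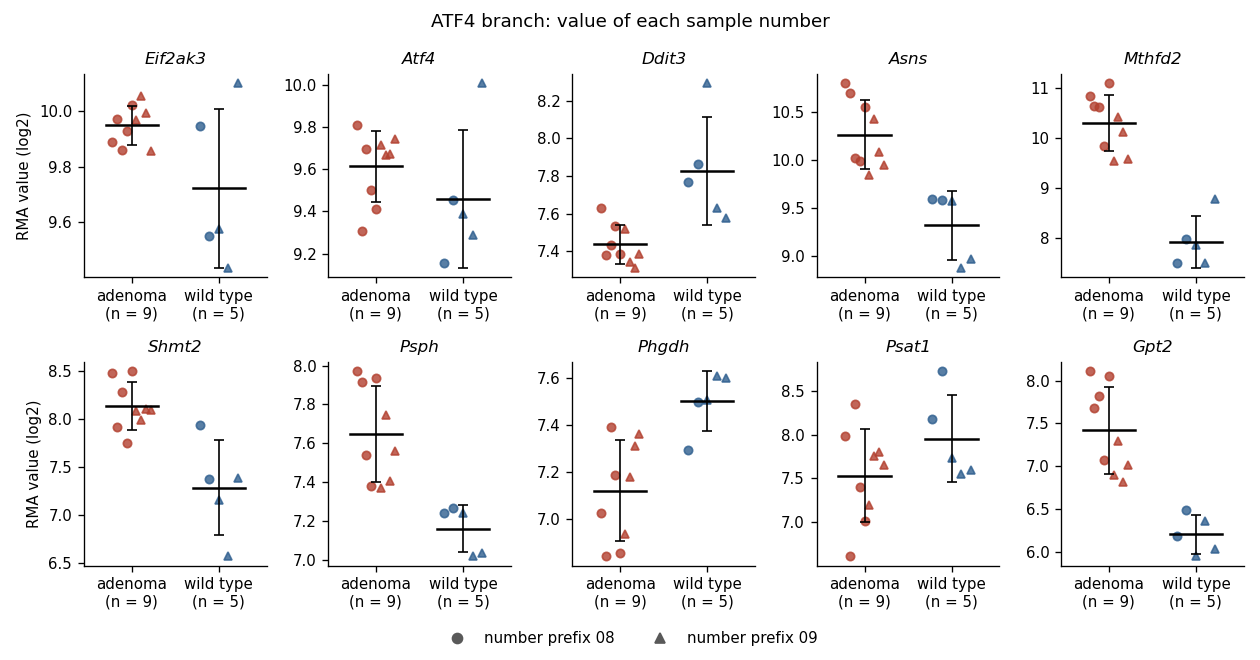
Log2 RMA value (y axis, own scale in each panel) of 10 ATF4-branch genes in each sample number, adenomas in red at the left and wild-type pituitaries in blue at the right, with means, SD bars and prefix symbols as circles (08) and triangles (09). Mthfd2, Asns, Psph and Gpt2 show no overlap, while Ddit3 and Phgdh lie lower in the adenomas.

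The number prefix was examined as a possible batch, since the labels do not say what it stands for. With the prefix as a block, 13 of the 14 higher calls and both lower calls were kept, Hspa5 being the exception. Within each prefix alone, all 14 log2 fold changes stayed above 0 and both lower ones below 0. These genes were picked by the fit of both prefixes together, so this agreement of sign is largely built in and is no check against a batch. With prefix 08 alone (5 adenoma and 2 wild-type values) only Mthfd2 (2.88, adjusted p = 0.00986) and Gpt2 (1.42, adjusted p = 0.0399) were called among the members. Over the whole array that fit called 363 probe sets higher and 345 lower, against 2479 and 2648 in the main fit. With prefix 09 alone (4 and 3 values) Calr, Dnajb11, Sdf2l1, Asns, Shmt2, Mthfd2 and Gpt2 were called, with log2 fold changes of 0.51, 0.84, 1.48, 0.93, 1.03, 1.87 and 0.89. The share of all probe sets called with prefix 09 alone is not given here, so these calls have no background beside them. Gpt2 values were 7.08 to 8.11 in the adenomas with prefix 08 and 6.82 to 7.30 in those with prefix 09.

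The adenoma over wild-type fold change was tested for a difference between females and males (the interaction term in limma), which 0.00% of all probe sets and no member passed after adjustment. At an unadjusted p under 0.05, 5 of 35 members passed (Herpud1, Eif2ak3, Ppp1r15a, Shmt2 and Mthfd2), against 6.78% of all probe sets. The log2 fold change of Mthfd2 was 1.92 among females and 3.01 among males, which did not pass (adjusted p = 0.729). The groups differed in their share of females, and with sex as a covariate the calls of Hspa5, Creld2 and Xbp1 were lost, which left 5 chaperone members and 1 XBP1 member called. Over the 9 adenomas, no member had an age slope past the threshold (0.00342% of all probe sets did), and none at an unadjusted p under 0.05, against 11.8% of all probe sets. With only the 2 adenoma numbers of 7 or 8 months (adenomas 4 and 6) against all wild-type pituitaries, no member was called, and the branch medians were 0.33, 0.29 and 0.15. Over the whole array that fit called only 119 probe sets higher and 14 lower.

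Among the adenomas the SD was 0.56 for Mthfd2, 0.51 for Gpt2 and 0.36 for Asns, and 0.083 for Hspa5. The 3 lesions of adenoma 5 had Mthfd2 values of 11.07, 11.32 and 10.92, while the 3 lesions of adenoma 3 had Asns values of 9.39, 10.28 and 10.39. The lowest of these lay below all other lesions and below 3 wild-type pituitaries, and the mean used for adenoma 3 was 10.02.

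Whether branch members varied together was asked over the 9 adenomas for 32 pairs, with Hspa5, Xbp1 and Asns each against the rest of its branch. By exact permutation over all pairings, two-sided and adjusted over the 32 pairs, 1 pair passed, Asns with Psph (Pearson's r = 0.945, p = 6.83e-04, adjusted p = 0.0219). Spearman's rho for this pair was 0.867 (exact permutation p = 0.00451, adjusted p = 0.0721), and r was 0.904 without the 2 adenomas farthest from the median of Asns. Adenomas 1, 2, 5 and 7 held the 4 highest values of both genes and the other 5 the lowest, with a gap between them, and no correlation was computed within either set, since each held fewer than 6 adenomas. Asns with Mthfd2 (r = 0.813, rho = 0.90) had an exact permutation p of 0.0124 and 0.00203, with adjusted p = 0.132 and 0.0649. Asns with Gpt2 (r = 0.756, exact permutation p = 0.026, adjusted p = 0.166) did not pass, nor did Asns with Atf4 itself (r = -0.331, exact permutation p = 0.375, adjusted p = 0.705). Hspa5 correlated most with Sdf2l1 (r = 0.780, exact permutation p = 0.0157, adjusted p = 0.132) and Hsp90b1 (r = 0.764, exact permutation p = 0.0165, adjusted p = 0.132). Each number prefix held fewer than 6 adenomas, and no correlation was computed within it.

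**Figure D4:**
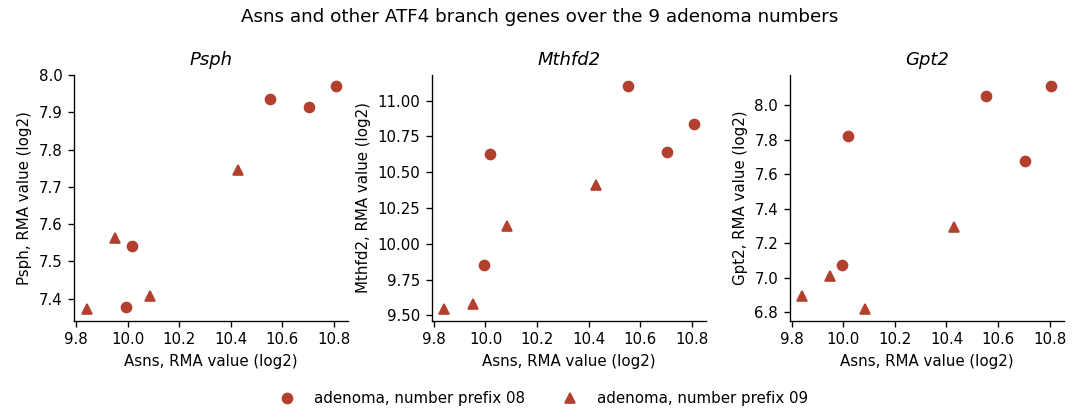
Log2 RMA value of Psph, Mthfd2 and Gpt2 (y axes) against that of Asns (x axis) in the 9 adenoma numbers, with circles for number prefix 08 and triangles for 09. For Psph the 4 adenomas with Asns at 10.43 or above all lie at 7.75 or above in Psph and the other 5 at 7.56 or below.

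Of the 7 macrophage markers 5 were called higher in the adenomas, and Csf1r and Aif1 were not called. The mean level of the 7 macrophage markers was 6.62 to 7.57 in the adenomas and 6.08 to 6.61 in the wild-type pituitaries. The 2 adenomas with the lowest means, adenomas 6 (6.62) and 4 (6.84), were also the 2 youngest and had Mthfd2 values of 9.54 and 9.85, 2 of the 3 lowest. Adenoma 5 had the highest macrophage mean (7.57) and the highest Mthfd2 value (11.10), whereas adenoma 9 had a macrophage mean of 7.56 and an Mthfd2 value of 9.58. The part of macrophages in these results was not tested. The plasma cell marker Jchain was near the bottom of the array scale in both groups, at 3.69 and 3.86 on average, and the 4 plasma and B cell markers ranged alike (5.70 to 6.03 in the adenomas, 5.73 to 6.03 in the wild-type pituitaries). The falls of somatotroph, corticotroph and melanotroph markers also moved with the group, and their part was not tested.

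Other genes of the same pathways were taken from lists written beside the members, also with earlier results of these data known. Of 22 other folding and degradation genes, 10 were called higher (45.5%, beside 12.1% of all genes and 17.9% of the brighter ones) and none lower, and their median log2 fold change was 0.36. Derl3, a channel protein of ER-associated degradation whose window holds an ERSE, was at 6.28 to 8.37 (median 7.73) in the adenomas and 6.11 to 7.53 in the wild-type pituitaries (log2 fold change 1.04, SE 0.32, adjusted p = 0.0377). Ppib, the ER cyclophilin, was at 10.40 to 11.17 (median 10.73) in the adenomas and 9.13 to 10.23 in the wild-type pituitaries with no overlap (log2 fold change 1.00, SE 0.17, adjusted p = 0.00129). Edem2, which trims mannose from glycoproteins bound for degradation, and Erlec1, an ER lectin, had log2 fold changes of 0.58 and 0.53. The count of 10 became 4 without wild-type pituitary 4, a fit in which higher calls over the whole array also fell, from 2479 to 1573.

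Of 21 translocon and signal peptide genes, which bring proteins into the ER, 9 were called higher (42.9%, beside 12.1% of all genes and 17.9% of the brighter ones) and none lower, with a median of 0.31. Ssr4, a subunit of the translocon-associated complex, was at 10.80 to 11.47 (median 11.18) in the adenomas and 9.53 to 10.73 in the wild-type pituitaries with no overlap (log2 fold change 0.94, SE 0.16, adjusted p = 0.00158). Srprb, a subunit of the signal recognition particle receptor, Sec61a1, the channel itself, and Rpn2, a subunit of the oligosaccharyltransferase, had log2 fold changes of 0.78, 0.78 and 0.70. With prefix 08 alone, 1 of the folding genes and none of the translocon genes were called, and with prefix 09 alone 6 and 6. Calls over the whole array were also few with prefix 08 alone, at 363 probe sets higher and 345 lower.

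Of 13 tRNA synthetase genes of the ATF4 program (with the export receptor Xpot counted among them), 9 were called higher (69.2%, beside 12.1% of all genes and 17.9% of the brighter ones) and none lower, with a median of 0.33. Xpot, which carries tRNA out of the nucleus, was at 10.16 to 10.85 (median 10.70) in the adenomas and 9.35 to 10.07 in the wild-type pituitaries with no overlap (log2 fold change 0.90, SE 0.14, adjusted p = 0.000613). Gars, Wars and Sars, which load glycine, tryptophan and serine, had log2 fold changes of 0.66, 0.60 and 0.51. The count of 9 was 5 without wild-type pituitary 4 or adenoma 1 or 3, and 6 without wild-type pituitary 3 or adenoma 5, 7, 8 or 9. CARE was found in 7 of the 11 windows matched for this list (63.6%). Elements of 6 of these windows are shown because the synthetase list held the largest share of CARE, the first 4 from genes called higher and the last 2, Cars and Iars, from genes that were not called, with the element in capitals.
Mars CARE, chr7:65023753-65023780, plus strand: gagcccacgcTGATGCAAccggaacggg
Nars CARE, chr18:60275779-60275806, minus strand: ctaggtgatcTGATGCAAcgcttcagtc
Tars CARE, chr2:62114812-62114839, plus strand: gctaaccagcTGATGCAAcgggacgcca
Yars CARE, chr5:146820191-146820212, plus strand: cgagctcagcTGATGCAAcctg
Cars CARE, chr1:208225335-208225362, plus strand: ttccagaatcTGATGCAAccgcggcgcc
Iars CARE, chr17:15193659-15193686, plus strand: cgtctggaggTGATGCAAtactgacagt

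The other ATF4 targets and regulators gave 3 higher and 3 lower calls among 24 genes (12.5% each), with a median of 0.10, beside 12.1% higher and 9.70% lower over all genes, so these shares lay near the background. Slc7a5, the large neutral amino acid transporter, had values of 8.51 at the lowest, 10.67 at the median and 11.35 at the highest of the 9 adenoma numbers, against 7.70, 9.35, 8.35, 8.53 and 7.48 in wild-type pituitaries 1 to 5. Adenomas 4 and 6, at 8.51 and 8.81, lay inside the wild-type range (log2 fold change 1.97, SE 0.47, adjusted p = 0.0105), and its partner chain Slc3a2 was higher as well (log2 fold change 0.81, SE 0.16, adjusted p = 0.00331). Nupr1, a small stress-induced nuclear protein, was also higher (log2 fold change 1.15, SE 0.37, adjusted p = 0.0426). The lower calls were Eif2ak4, Atf5 and Jdp2. Eif2ak4, the amino acid sensor GCN2, was at 8.04 at the lowest, 8.22 at the median and 8.81 at the highest of the 9 adenoma numbers, against 9.06, 9.19, 9.27, 9.38 and 9.09 in wild-type pituitaries 1 to 5. The groups did not overlap (log2 fold change -0.90, SE 0.12, adjusted p = 0.000297), which for lower values held for 2.39% of all genes and 2.50% of the brighter ones. Atf5, a relative of ATF4, and Jdp2, a repressor of the same family, had log2 fold changes of -0.39 each. The counts were 2 higher and 1 lower without wild-type pituitary 5. Of 13 other folate and glycine genes, 1 was called higher and 1 lower (7.69% each), below the 12.1% and 9.70% of all genes. These were Atic, of purine synthesis (log2 fold change 0.45), and Amt, of the glycine cleavage system (-0.35). The counts became 0 and 0 without wild-type pituitary 3 or 4.

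Age and these other lists were also set side by side over the 9 adenomas. At an unadjusted p under 0.05, 7 of 13 tRNA synthetase genes and 6 of 24 other ATF4 targets had an age slope, against 11.8% of all probe sets, and none passed after adjustment. The slope of Slc7a5 was 0.47 log2 units per month (adjusted p = 0.137 from limma) and that of Xpot 0.10 (adjusted p = 0.248). Adenomas 4 and 6, the youngest, had the lowest values of both genes.

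**Figure D5:**
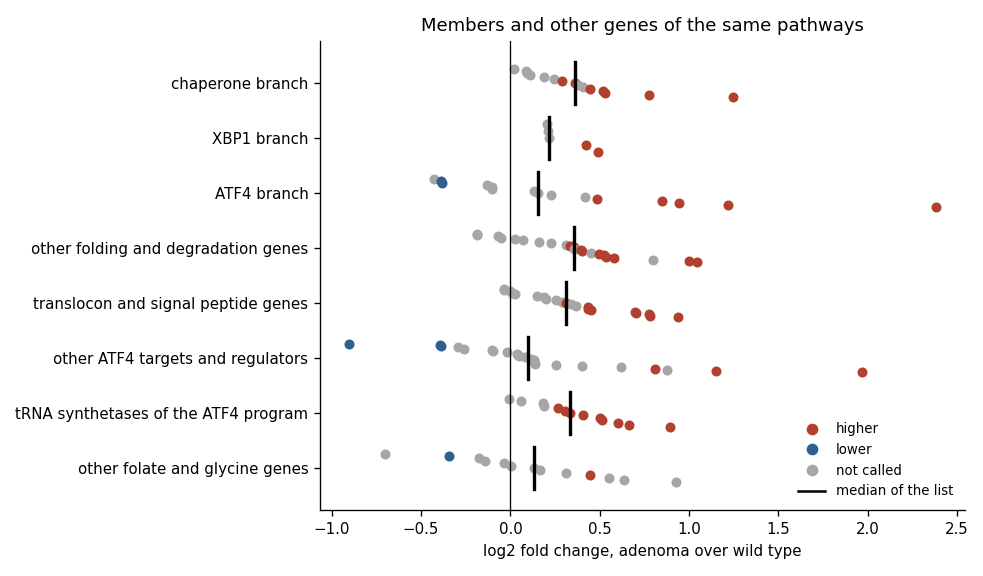
Log2 fold change, adenoma over wild type (x axis), of every measured gene of the 3 branches and of 5 other lists (rows), with red points called higher, blue points called lower, grey points not called and a black bar at the median of each list. The chaperone, folding, translocon and synthetase lists hold red points and no blue ones, while the ATF4 branch spreads from -0.43 to 2.38.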

How the data were processed

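RNA from 16 pituitary lesions and 5 normal pituitaries was hybridised to 1-colour Affymetrix Rat Gene 1.0 ST arrays. The deposited log2 values were made by the authors with RMA in Affymetrix Expression Console (version not given in the sources used here), which corrects background, quantile-normalizes the arrays and summarises the probes of each probe set, and scanner intensities were not used here. Of 29214 probe sets, 15310 had 1 gene symbol in the platform annotation, 323 several and 13581 none. The 38 genes and all lists were chosen with earlier results of these data known, so the counts are descriptions.

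Lesions with the same sample number were averaged, and 9 adenoma values were compared with 5 wild-type values in limma 3.58.1 (R 4.3.3; lmFit and eBayes, 12 residual degrees of freedom), with Benjamini-Hochberg adjustment over all probe sets and a threshold of 0.05. Each fold change is adenoma over wild type. RMA pulls low signals together, so folds of dim genes are understated, and the number of arrays limits the precision. On simulated data, 36.5% of probe sets changed by 0.5 on the log2 scale and 92% of those changed by 1 were recovered (200 changed among 29214). In the data 17.5% of probe sets were called, a far larger share. The adjusted threshold depends on that share, so these recoveries do not give the power of the main test. The same model was fitted with a sex interaction, and age slopes were fitted over the adenomas. Separate animals are given by sample numbers only, so p-values of the main fit measure the spread between these numbers. The test of the study's methods instead took the 16 lesions as independent samples.

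Every measured member was named, together with Cdkn1b, and up to 4 called genes of each other list by size of the change. Alternatives covered the unit of analysis, the t-test of the study's methods, number prefix, replicate number, sex, age, dim probe sets, normalization, array weights, variance fitting, thresholds, the choice of probe set and leaving out each sample number. Promoter windows are from RefSeq, build GRCr8, a build that was used for sequences only, and some of the matched sequences are not reported here.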

Additional observations from a re-analysis of the deposited data

Results flagged for a closer look

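In each group of 9 adenomas or 5 wild-type pituitaries, the gap between the most extreme sample and its nearest neighbour was compared with the whole range of the group. Of 70 groups tested, 3 had a sample that stood apart, and chance gives about 1 in 20. Manf in adenoma 2 was 10.175, with the next adenoma at 10.512 and the highest at 10.712. Manf in wild-type pituitary 5 was 10.976, with the next at 10.147 and the lowest at 9.905. Sel1l in adenoma 8 was 9.516, with the next adenoma at 9.651 and the highest at 9.781.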

How the results depend on the processing

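The main analysis called 2479 probe sets higher and 2648 lower, and 7 chaperone, 2 XBP1 and 5 ATF4 members higher and 2 ATF4 members lower, with branch medians of 0.36, 0.22 and 0.16. Under the alternatives 297 of the summary values stayed near these and 55 moved, and of the values of single genes, other lists and correlations 1438 stayed alike, 127 lost their call, 9 gained it, 99 moved and 22 changed sign. The cause of these changes was not tested, except that single prefixes, young adenomas, left-out samples and a block for the replicate number mean fewer samples. Lower probe sets numbered 4142 with lesions as independent samples and 4014 with the equal-variance test of the study's methods. The same test with unequal variances gave 1248, with 3 chaperone members, 0 XBP1 members and 1 lower ATF4 member called. Both forms of this test also took lesions as independent samples. With prefix 08 alone, 363 and 345 probe sets were called, with 0 chaperone members (median 0.212), 0 XBP1 members, 2 higher ATF4 members and 0 lower ones. With prefix 09 alone, 3 chaperone members, 0 XBP1 members (median 0.395) and 0 lower ATF4 members were called. With sex as a covariate 5 chaperone members (without Hspa5 and Creld2) and 1 XBP1 member (without Xbp1) were called. A second quantile normalization left 5 chaperone members called (without Hyou1 and Creld2). The chaperone median was then 0.274, with 13 log2 fold changes above 0, and the XBP1 median 0.138. Array weights left 1 lower ATF4 member. With only the adenomas of 7 or 8 months, 119 and 14 probe sets, 0 chaperone members, 0 XBP1 members (median 0.294) and 0 higher and 0 lower ATF4 members were called. An adjusted p under 0.01 gave 1101 and 1052 probe sets, 4 chaperone members, 1 XBP1 member and 0 lower ATF4 members, and a fold over 2 gave 417 and 307 probe sets, 1 chaperone member, 0 XBP1 members, 2 higher ATF4 members and 0 lower ones. Without 1 sample number at a time, 1573 to 3106 probe sets were called higher and 1649 to 3780 lower, with 4 to 9 chaperone members (median 0.264 to 0.466), 1 to 2 XBP1 members (0.198 to 0.347, and 0.316 without wild-type pituitary 1), 5 to 7 higher and 1 to 2 lower ATF4 members (median 0.112 to 0.293).

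The labels' replicate numbers showed no pairing (correlations of deviations 0.203, 0.194, 0.095, 0.084 and -0.053, with 0 of 5 lesions correlated best with their own number). Only replicate numbers 1 to 5 occur in both groups. The replicate block thus rested on 5 lesions, of adenomas 1, 2 and 3, taken as independent samples. With this block, 3 chaperone members, 1 XBP1 member and 1 lower ATF4 member were called, and log2 fold changes turned sign for Atf6 (-0.065), Pdia3 (-0.04), Pdia4 (-0.065), P4hb (-0.012), Syvn1 (-0.114), Trib3 (0.032) and Cebpb (0.114).

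Signs of uncalled genes also turned with prefix 08 alone, for Atf6 (-0.047), Pdia3 (-0.027), Pdia4 (-0.023), Dnajb9 (-0.058), Trib3 (0.084), Chac1 (-0.044) and the median of the other folate and glycine genes (-0.013). They turned with sex as a covariate for Atf6 (-0.004) and Pdia4 (-0.002), and after a second quantile normalization for Pdia3 (-0.004) and Pdia4 (-0.036). Without 1 sample number at a time, Atf6 ranged over -0.022 to 0.19, Pdia3 over -0.014 to 0.04, Pdia4 over -0.034 to 0.207 and Dnajb9 over -0.026 to 0.342, each lowest without wild-type pituitary 4.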
